A study of Mus musculus with 10 samples.

Results

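A set of 10 genes of the placental trophoblast was followed across mouse embryonic stem (ES) cell cultures in which the dioxygenase Tet3 had been removed or raised. They were 4 cathepsins of the placental cluster (Ctsj, Ctsq, Ctsr and Ctsm), the secreted trophoblast protein gene Tpbpa, 3 placental members of the prolactin family (Prl7d1, Prl3d1 and Prl2c2) and the transcription factors Gcm1 and Elf5. All 10 symbols were present among the 21937 genes of the deposited table. The genes were picked by symbol after their values in all 10 libraries had been seen. Their levels and differences are therefore a description of these libraries, with no test.

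Each library came from total RNA of C57BL/6 ES cells, 1 library for each condition and day, so no difference has a replicate check. In SFEB culture, floating aggregates that form neuroectoderm, the 6 libraries were Tet3 knockout cells (KO), Tet3 KO cells given Dkk (KO+Dkk) and wild-type cells (WT) on days 6 and 10. In culture with fetal bovine serum (FBS), which does not permit neural differentiation, the 4 libraries were Tet3-overexpressing and control cells on days 4 and 7. KO cells were made in-house from mice with floxed Tet3 alleles, the floxed exon being cut out by Cre expressed for a short time, and no further line or clone is named, so genotype and line cannot be told apart. Dkk, a secreted protein that blocks Wnt ligands from their receptors, was given to KO cells alone, and its amount, its timing and its kind were not given in the sources used here, nor was how Tet3 was raised or what the control cells carried.

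The trophoblast is the outer lineage of the embryo that builds the placenta, and ES cells, which represent the inner cell mass, seldom enter it. In rodents the placental cathepsins, cysteine proteases related to cathepsin L, and most prolactin-like hormones arose by repeated gene duplication, and their transcripts are known chiefly from differentiated trophoblast cells. Tpbpa marks the spongiotrophoblast, Prl3d1 (placental lactogen I) and Prl2c2 (proliferin) mark trophoblast giant cells, and Gcm1 and Elf5 are regulators of syncytiotrophoblast formation and of trophoblast stem cells. By the RefSeq table of build GRCm38.p6, 8 of the 10 genes lie on chromosome 13, with Gcm1 on chromosome 9 and Elf5 on chromosome 2.

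The sequences before the start sites are printed for the 5 genes that moved together in the results, with that of Ctsm, a cluster neighbour listed at 0, beside them. Each is the 250 bases before the first annotated start, 5′ to 3′ on the gene's strand, credited to RefSeq, build GRCm38.p6, whereas the values were made on mm9. Their positions, all on the minus strand, are chr13:61005926-61006175 for Ctsj, chr13:61040598-61040847 for Ctsq, chr13:61164189-61164438 for Ctsr, chr13:60941937-60942186 for Tpbpa, chr13:27716738-27716987 for Prl7d1 and chr13:61541840-61542089 for Ctsm. Capitals mark the motifs CCAAT, which reads ATTGG where it lies on the other strand, and TTTAAA, both chosen after the sequences had been read.
Ctsj: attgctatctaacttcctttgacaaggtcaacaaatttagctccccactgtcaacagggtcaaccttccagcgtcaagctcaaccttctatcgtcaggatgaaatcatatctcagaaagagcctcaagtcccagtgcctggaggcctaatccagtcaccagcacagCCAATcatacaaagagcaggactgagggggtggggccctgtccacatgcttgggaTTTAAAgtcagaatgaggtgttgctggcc
Ctsq: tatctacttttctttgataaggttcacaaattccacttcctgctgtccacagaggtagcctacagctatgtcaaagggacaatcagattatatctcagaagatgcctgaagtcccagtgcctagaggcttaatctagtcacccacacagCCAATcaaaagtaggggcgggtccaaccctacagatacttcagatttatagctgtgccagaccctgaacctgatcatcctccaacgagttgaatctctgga
Ctsr: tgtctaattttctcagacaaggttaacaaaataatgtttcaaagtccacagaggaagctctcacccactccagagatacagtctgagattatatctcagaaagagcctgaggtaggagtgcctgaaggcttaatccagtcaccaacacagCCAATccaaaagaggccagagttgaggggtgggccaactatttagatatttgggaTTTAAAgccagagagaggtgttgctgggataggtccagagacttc
Tpbpa: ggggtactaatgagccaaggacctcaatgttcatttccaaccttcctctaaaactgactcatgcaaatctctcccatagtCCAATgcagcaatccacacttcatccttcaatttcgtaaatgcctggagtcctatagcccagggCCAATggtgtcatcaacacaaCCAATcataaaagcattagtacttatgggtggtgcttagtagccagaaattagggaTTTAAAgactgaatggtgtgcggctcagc
Prl7d1: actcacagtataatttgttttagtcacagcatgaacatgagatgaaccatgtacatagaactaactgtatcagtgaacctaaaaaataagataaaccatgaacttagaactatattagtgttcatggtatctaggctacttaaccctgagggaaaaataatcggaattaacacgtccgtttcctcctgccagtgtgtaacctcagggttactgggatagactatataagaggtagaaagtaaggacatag
Ctsm: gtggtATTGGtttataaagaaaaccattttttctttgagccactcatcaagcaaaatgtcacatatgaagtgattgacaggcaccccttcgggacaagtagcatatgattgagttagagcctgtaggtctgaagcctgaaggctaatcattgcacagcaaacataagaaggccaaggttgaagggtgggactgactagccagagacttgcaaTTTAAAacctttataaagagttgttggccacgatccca
CCAAT lay 84 to 80 bases before the start of Ctsj, 101 to 97 before Ctsq and 100 to 96 before Ctsr, and Tpbpa held it 3 times. The RefSeq start of Ctsq was not matched by its GENCODE vM21 transcripts, so its positions are less certain than those of the other 5. Ctsm held it only on the other strand, 245 to 241 bases before its start, and Prl7d1 held none. TTTAAA lay 29 to 24 bases before the starts of both Ctsj and Tpbpa, 45 to 40 before Ctsr and 38 to 33 before Ctsm. Searched on both strands over 32851 RefSeq promoters of the same length, CCAAT was found in 33.8% and TTTAAA in 12.1%. No marked match overlapped another.

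Of 5 motifs searched by their known letters on both strands, AGGAAG, read by ETS factors such as Elf5, was present before Ctsj, Ctsq, Ctsr, Tpbpa and Prl3d1 and in 29.5% of all promoters. The GCM motif ATGCGGG was present before none of the 9 genes with a sequence and in 1.19% of promoters, and the AP-1 motif TGANTCA before Tpbpa and Prl3d1 and in 6.75%. The GATA motif AGATAA was present before Prl7d1 alone and in 9.99% of promoters, and TATAAA before Ctsq and Ctsm and in 12.4%. The promoters of Ctsj, Ctsq and Ctsr were 62.2% to 66.9% identical to each other in pairwise alignment, and that of Prl7d1 was 49.3% to 51.4% identical to the 4 cathepsin promoters. The CpG dinucleotide, the usual site of the methylated cytosine that Tet3 oxidises, occurred 2 times before Ctsj and Ctsq, 0 times before Ctsr, 2 times before Tpbpa and 3 times before Prl7d1. The median over all promoters was 6, with quartiles of 2 and 16.

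Values are RPKM, reads scaled to transcript length and to the size of the library, so levels of different genes can be set side by side per length. Depth, estimated from the spacing of low values, was 10200000 to 11300000 reads in 5 SFEB libraries, 37200000 in KO+Dkk on day 10, the least certain estimate, and 17400000 to 43800000 in the FBS libraries. Read numbers given for a gene are estimates of the same kind, and their 95% Poisson intervals cover counting error only. Tet3 was at 6.59 RPKM in KO, 7.64 in KO+Dkk and 8.11 in WT on day 6, and at 14.3, 13.1 and 10.2 RPKM in the same order on day 10, values of the whole gene that do not check the loss of 1 exon. In FBS culture it was at 12.5 RPKM in overexpressing and 0.96 in control cells on day 4, and the day 7 values were 14.1 and 5.87 RPKM. The pluripotency gene Nanog was at 0.08 to 0.55 RPKM in the SFEB libraries and at 4.13 to 18.1 RPKM in the FBS libraries, so for the SFEB libraries the label embryonic stem cells gives the cells' origin.

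Of the 10 genes, Ctsj, Ctsq, Ctsr, Tpbpa and Prl7d1 had their highest value in WT cells on day 10 of SFEB culture and low values or 0 in KO cells. With overexpression in FBS culture, Ctsj, Ctsq, Ctsr and Prl7d1 were at higher values than in control cells on both days, Ctsq from only 4 and 2 reads. The other 5 genes had too few reads to be placed or had their highest values elsewhere. Ctsm was listed at 0 in all 10 libraries, and Prl3d1 and Prl2c2 rested on 1 and 6 estimated reads in all libraries together. Gcm1 was highest in control cells on day 4, and Elf5 in KO on day 10 from only 3 reads. The 5 genes summed to 0.15 RPKM in KO, 0.07 in KO+Dkk and 2.88 in WT on day 6, and to 0.22, 1.69 and 28.8 RPKM in the same order on day 10. They summed to 2.26 RPKM in overexpressing and 0.03 in control cells on day 4, and the day 7 sums were 1.61 and 0 RPKM. These are bulk cultures, in which fewer cells of a type and less RNA per cell cannot be told apart.

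**Figure D1:**
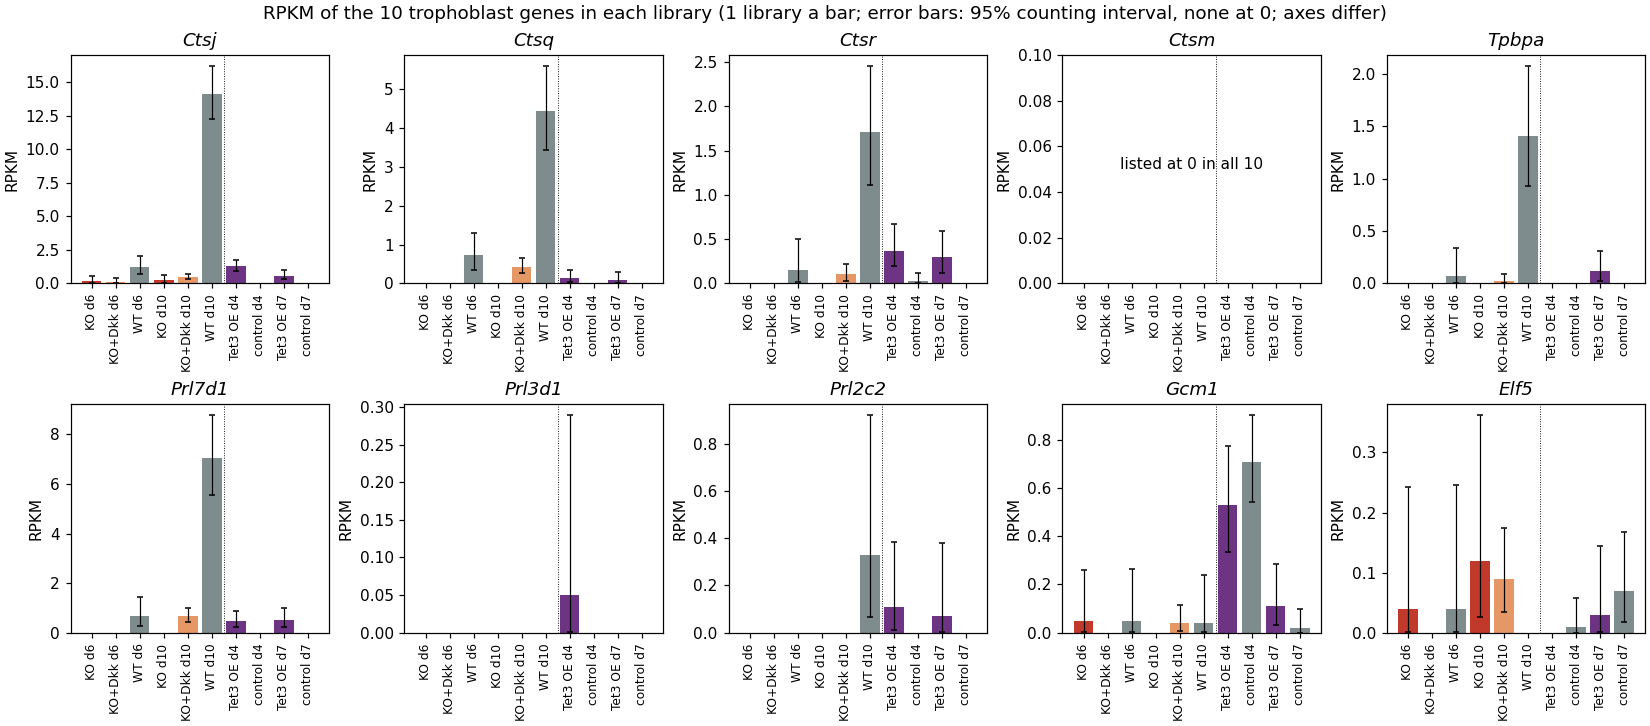
RPKM of each of the 10 genes in each library, with KO, KO+Dkk and WT on days 6 and 10 left of the dotted line and Tet3-overexpressing (Tet3 OE) and control cells on days 4 and 7 right of it. Each bar is 1 library, error bars are 95% counting intervals (none at 0) and the axes differ, with Ctsj reaching 14.1 RPKM in WT on day 10 and Ctsm listed at 0 throughout.

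Ctsj, a cysteine protease of the rodent placenta, was at 0.15 RPKM in KO, 0.07 in KO+Dkk and 1.23 in WT on day 6, from 2, 1 and 16 estimated reads. On day 10 it was at 0.22 RPKM in KO, 0.48 in KO+Dkk and 14.1 in WT, from 3, 23 and 203 reads, and the interval of the WT value was 12.3 to 16.2 RPKM. In FBS culture Ctsj was at 1.27 RPKM in overexpressing cells on day 4 and 0.58 on day 7, and it was listed at 0 in control cells on both days, where 3 reads would be 0.054 and 0.086 RPKM. WT on day 10 thus stood apart, at rank 5385 of all genes in that library. In the order below it, overexpressing cells on day 4 and WT on day 6 had overlapping intervals (0.890 to 1.76 and 0.705 to 2.004 RPKM), as did overexpressing cells on day 7 and KO+Dkk on day 10 (0.313 to 1.01 and 0.308 to 0.730 RPKM).

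Ctsq, which marks the sinusoidal giant cells of the mouse labyrinth, was listed at 0 in KO and KO+Dkk and at 0.74 RPKM in WT on day 6. On day 10 it was listed at 0 in KO, where 3 reads would be 0.200 RPKM, and was at 0.42 RPKM in KO+Dkk and 4.45 in WT, with an interval of 3.45 to 5.61 RPKM in WT. Overexpressing cells had 0.13 RPKM on day 4 and 0.09 on day 7, from 4 and 2 reads, and control cells 0 on both days. The WT values of both days and the KO+Dkk value of day 10 rested on 10 reads or more, and the other values on fewer.

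Ctsr, another protease of the cluster, was listed at 0 in KO and KO+Dkk and at 0.15 RPKM in WT on day 6. On day 10 it was listed at 0 in KO, and it was at 0.10 RPKM in KO+Dkk and 1.71 in WT, from 5 and 27 reads. In FBS culture it was at 0.37 RPKM in overexpressing and 0.03 in control cells on day 4, and the day 7 values were 0.30 and 0 RPKM. Per length, the listed value of Ctsq was above that of Ctsr in every SFEB library where either was above 0. Their intervals overlapped in WT on day 6 but not in KO+Dkk or WT on day 10. Ctsr was listed above Ctsq in every FBS library where either was above 0, but their intervals overlapped in each. In overexpressing cells the intervals of Ctsr and Ctsq were 0.197 to 0.665 and 0.035 to 0.333 RPKM on day 4. On day 7 they were 0.114 to 0.586 and 0.01 to 0.301 RPKM. The order in FBS culture was thus not resolved at this depth, nor was a difference in order between the cultures.

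Ctsm, a further trophoblast cathepsin, was listed at 0 in all 10 libraries, where 3 reads would be 0.036 to 0.154 RPKM. The counting of reads that match several genes was not given in the sources used here. None of the 50-base windows of the Ctsj, Ctsq and Ctsr transcripts recurred in a transcript of another gene, whereas 25.6% of those of Ctsm did, so a value of Ctsm could be set by such reads. Whole transcripts of Ctsj, Ctsq and Ctsr were 68.0% to 70.5% identical, and 50.3% to 54.0% identical to that of Ctsm.

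Tpbpa, a secreted protein used as the marker of spongiotrophoblast and its precursors, was listed at 0 in KO and KO+Dkk and at 0.07 RPKM in WT on day 6. On day 10 it was listed at 0 in KO, at 0.02 RPKM in KO+Dkk from 1 read, and at 1.41 RPKM in WT from 26 reads, with an interval of 0.927 to 2.08 RPKM. In FBS culture it was above 0 in overexpressing cells on day 7 alone, at 0.12 RPKM from 3 reads. Its level was therefore resolved from 0 in WT on day 10 and rested on 1 to 3 reads in the other libraries where it was above 0.

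Among the prolactins, Prl7d1 (proliferin-related protein, a placental hormone that restrains blood vessel growth) was listed at 0 in KO and KO+Dkk and at 0.69 RPKM in WT on day 6. On day 10 it was listed at 0 in KO, where 3 reads would be 0.277 RPKM, and was at 0.67 RPKM in KO+Dkk and 7.06 in WT, from 25 and 79 reads. Overexpressing cells had 0.49 RPKM on day 4 and 0.52 on day 7, from 11 and 9 reads, against 0 in control cells on both days, where 3 reads would be 0.069 and 0.110 RPKM. WT on day 10 was again the highest library, and WT on day 6, KO+Dkk on day 10 and both overexpressing libraries lay together at 0.49 to 0.69 RPKM.

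Prl3d1, the first placental lactogen made by giant cells, was above 0 in overexpressing cells on day 4 alone, at 0.05 RPKM from 1 read. Prl2c2 was at 0.33 RPKM in WT on day 10 from 3 reads and at 0.11 and 0.07 RPKM in overexpressing cells on days 4 and 7, and was listed at 0 in the other 7 libraries. Of the 50-base windows of its transcripts 89.5% recurred in other genes, mostly in its copy Prl2c3, and 56.8% of those of Prl3d1 did, mostly in Prl3d3. Values of both are uncertain for that reason, while Prl7d1 shared none.

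Of the regulators, Gcm1 showed another pattern, and Elf5 had too few reads to be placed. Gcm1, the factor that directs syncytiotrophoblast formation, was at 0.05 RPKM in KO, 0 in KO+Dkk and 0.05 in WT on day 6, and at 0, 0.04 and 0.04 RPKM in the same order on day 10, no library of SFEB culture having more than 3 reads. In FBS culture it was at 0.53 RPKM in overexpressing and 0.71 in control cells on day 4, from 24 and 64 reads, and the day 7 values were 0.11 and 0.02 RPKM. Gcm1 was thus highest in a control library, which listed Ctsj at 0. Elf5, a factor of trophoblast stem cells, was at or below 0.12 RPKM in all 10 libraries, with 18 estimated reads in total. Its highest value, in KO on day 10, rested on 3 reads, with an interval of 0.026 to 0.362 RPKM. In WT that day Elf5 was listed at 0 with an upper limit of 0.147 RPKM, so the order was not resolved.

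For the comparison of KO with WT, which asks what the loss of Tet3 goes with in neural differentiation, differences are in log2(RPKM + 0.5), a scale that understates the change of low genes. A gene was compared where any library of the culture had it at 1 RPKM or above, and called at 2-fold. In SFEB culture 5 of the 10 genes were above that level, and all 5 reached it in WT libraries alone, Ctsj on both days and Ctsq, Ctsr, Tpbpa and Prl7d1 on day 10. A higher value in WT was thus part of the selection, and nothing is read from the counts of called genes against the shares of all genes given beside them. On day 6, Ctsj, Ctsq and Prl7d1 were 2-fold lower in KO and 0 were higher, where 2.18% of all 12912 genes compared were lower and 4.88% higher. On day 10 all 5 were 2-fold lower in KO and 0 higher, where 1.96% of all genes were lower and 8.26% higher.

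Ctsj was lower in KO by a difference of -1.41 on day 6 and -4.34 on day 10, with 95% counting intervals of the log2 read ratio of -6.18 to -0.93 and -8.32 to -4.46. The other 4 genes were listed at 0 in KO, so the size of their differences is set by the pseudocount, and they ran from -1.93 for Tpbpa to -3.92 for Prl7d1 on day 10. On day 6, Ctsr and Tpbpa stood at 0 in KO against 2 reads and 1 read in WT, which the depth cannot resolve. With a pseudocount of 1 no gene was 2-fold lower on day 6, while all 5 were on day 10. Of the 5 genes below 1 RPKM, Ctsm and Prl3d1 were at 0 in KO and WT, and the day 10 differences were -0.73 for Prl2c2, -0.11 for Gcm1 and 0.31 for Elf5.

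**Figure D2:**
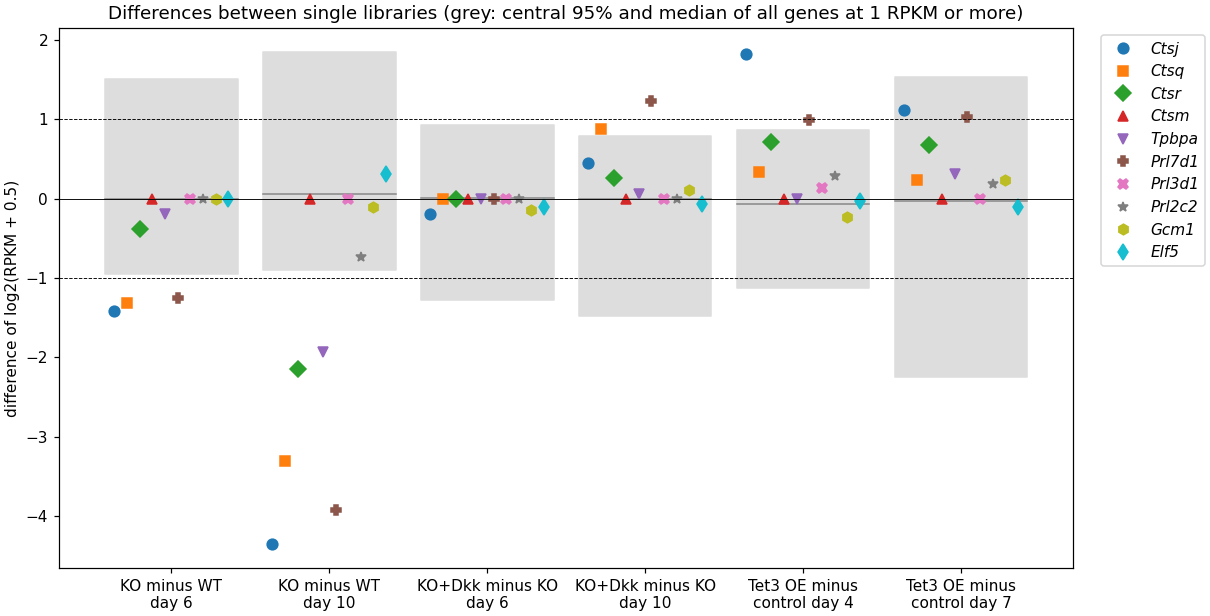
Difference of log2(RPKM + 0.5) between single libraries for each of the 10 genes in 6 comparisons, the first-named library minus the second, with dashed lines at 2-fold. Grey boxes span the central 95% of all genes compared, and on day 10 the KO minus WT values of Ctsj, Ctsq, Ctsr, Tpbpa and Prl7d1 lie at -1.93 or lower, below the box that ends at -0.90. These genes were compared because of their WT values, so that place follows largely from the selection and nothing is read from it.

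For Dkk, the question was whether blocking Wnt signalling in KO cells shifts the genes. On day 6 none of the 10 genes was 2-fold different between KO+Dkk and KO, where 2.18% of all genes were higher and 3.57% lower, and 9 of the 10 genes had at most 1 read in either library. On day 10, Prl7d1 was 2-fold higher in KO+Dkk and 0 were lower, where 1.7% of all genes were higher and 5.23% lower. Prl7d1 stood at 25 estimated reads in KO+Dkk against 0 in KO, and Ctsq at 22 against 0, and the lower bounds of their log2 read ratios were 0.88 and 0.68. For Ctsj, with 23 reads against 3, the interval of -0.56 to 3.55 included no change, so no difference was detectable at the depth of the KO library. With a pseudocount of 1 Prl7d1 was no longer 2-fold higher, and with 0.1 Ctsq and Ctsr joined it.

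Set against WT, KO+Dkk cells also had low values of the 5 genes, in a comparison that shares its WT libraries with that of KO. On day 6, Ctsj, Ctsq and Prl7d1 were 2-fold lower in KO+Dkk than in WT and 0 higher, where 0.976% of all genes were lower and 1.58% higher. On day 10 Ctsj, Ctsq, Ctsr, Tpbpa and Prl7d1 were 2-fold lower and 0 higher, where 1.68% of all genes were lower and 4.59% higher. The day 10 differences were -3.90 for Ctsj, -2.69 for Prl7d1, -2.43 for Ctsq and -1.88 for both Ctsr and Tpbpa. The counting interval of the log2 read ratio was -5.55 to -4.24 for Ctsj and -4.09 to -2.71 for Prl7d1. Ctsj alone was 2-fold lower on day 6 where the pseudocount was 1.

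In FBS culture the comparison of overexpressing with control cells asks what more Tet3 goes with where neural differentiation is not permitted. Ctsj alone of the 10 genes reached 1 RPKM there, in overexpressing cells on day 4, so that a higher value in that library was part of the selection. It was 2-fold higher with overexpression and 0 were lower on both days, where the shares of all 12387 genes on day 4 were 1.72% higher and 3.47% lower, against 6.96% higher and 11.1% lower on day 7. Against a control listed at 0, the lower bound of its log2 read ratio was 4.19 on day 4 and 2.26 on day 7. This bound and those that follow cover counting error alone. They are no test, since the genes were chosen with these values known. The lower bounds for Prl7d1 were 2.30 and 1.64, and that for Ctsr on day 7 was 1.18, while the Ctsr interval on day 4 was 1.39 to 6.76. The lower bounds for Ctsq, from 4 and 2 reads against 0, were 0.37 on day 4 and -1.76 on day 7, and the day 7 bound included no change. The overexpressing libraries were less deep than their controls, with 22300000 reads against 43800000 in control cells on day 4 and 17400000 against 27400000 on day 7.

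Gcm1 differed by -0.23 on day 4 and by 0.23 on day 7 between overexpressing and control cells, and the intervals of its log2 read ratio, -1.18 to 0.26 and -0.68 to 8.28, both included no change. Ctsj was no longer 2-fold higher on day 7 where the pseudocount was 1, and with no filter Prl7d1 joined it that day.

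Between the days of SFEB culture, the 5 genes were compared because of their WT values, so that calls in WT and their absence in KO follow in part from the selection. Ctsj, Ctsq, Ctsr, Tpbpa and Prl7d1 were 2-fold higher in WT on day 10 than in WT on day 6 and 0 were lower, where 16.9% of all genes were higher and 7.98% lower. Their differences ran from 1.75 for Tpbpa to 3.08 for Ctsj, whose read-ratio interval was 2.78 to 4.35. In KO none of the 10 was 2-fold higher or lower, where 21.1% of all genes were higher and 8.01% lower, and in KO+Dkk Prl7d1 was higher and 0 lower, where 17.6% were higher and 6.81% lower. With a pseudocount of 1 Prl7d1 was not called in KO+Dkk, and with 0.1 Ctsj, Ctsq and Ctsr were called beside it. In FBS culture Ctsj was the only gene compared, and it was not called between days 7 and 4 in overexpressing cells (3.49% of all genes higher, 1.20% lower). In control cells (11.5% higher, 8.71% lower) it was listed at 0 on both days, so no call was possible. Gcm1, below 1 RPKM, was lower on day 7 than on day 4 in control cells by a difference of -1.22, with a read-ratio interval of -10.7 to -2.79, and in overexpressing cells by -0.76, with an interval of -4.21 to -0.69.

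The cathepsins and Tpbpa lie side by side on chromosome 13, and their neighbours did not all share the pattern. In chromosomal order, Tpbpa, Ctsj, Ctsq and Ctsr follow each other among the genes of the table, between Ctla2a on one side and Cts6 on the other. Ctla2a, an inhibitor of cathepsin L-like proteases, stood at 3.08 RPKM in KO, 0.17 in KO+Dkk and 0.19 in WT on day 10, highest in the library where Ctsj was lowest. Its relative Ctla2b stood at 1.20 RPKM in KO, 0.14 in KO+Dkk and 0.31 in WT. In FBS culture Ctla2a was at 0.67 RPKM in overexpressing and 2.60 in control cells on day 4, with day 7 values of 1.23 and 8.19 RPKM, higher in the libraries that listed Ctsj at 0.

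On the other side of the block, Cts6 was at 0 RPKM in KO, 0.02 in KO+Dkk and 0.13 in WT on day 10. Cts8 was at 0.01 RPKM in KO+Dkk and 0 in KO and WT, and Cts8-ps, Cts7, Ctsm and Cts3 were at 0 in all 3. Of the 5 further placental cathepsins listed as markers (Cts3, Cts6, Cts7, Cts8 and Ctsll3), 3 were listed at 0 in all 10 libraries and none reached 1 RPKM. Among the cathepsins and the 2 Tpb genes of the cluster, those above 0 in WT on day 10 were thus the 4 adjacent genes Tpbpa, Ctsj, Ctsq and Ctsr, and Cts6.

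**Figure D3:**
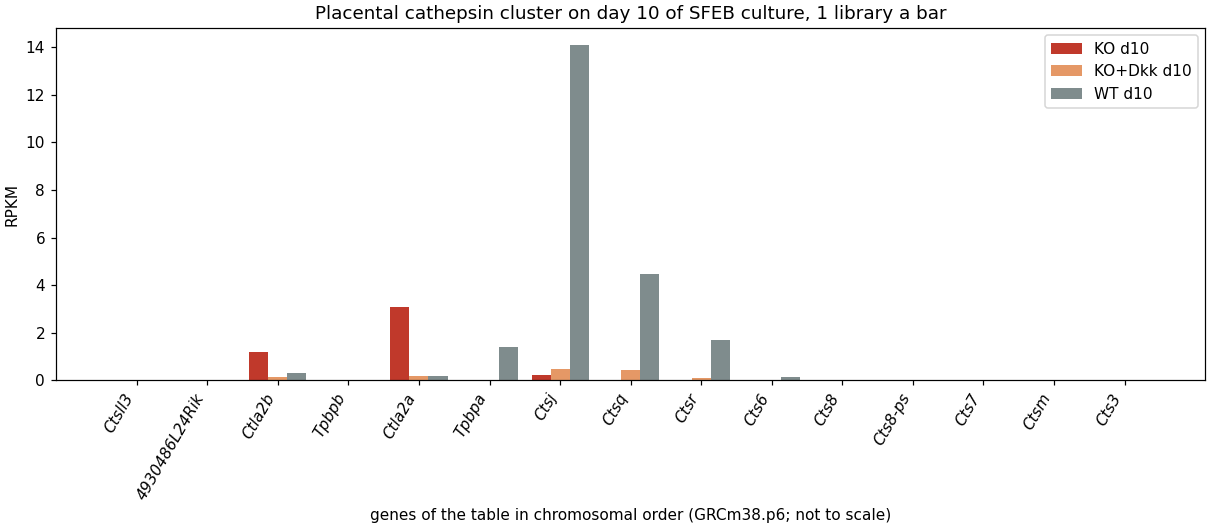
RPKM on day 10 of SFEB culture for the genes of the placental cathepsin cluster in their order on chromosome 13, 1 library a bar, with KO, KO+Dkk and WT side by side at each gene. WT bars stand at the adjacent genes Tpbpa, Ctsj, Ctsq and Ctsr, while Ctla2a and Ctla2b are highest in KO, at 3.08 and 1.20 RPKM.

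The prolactin family, whose genes in mouse form another cluster of chromosome 13, had more genes above 0 in WT than in KO and with overexpression than in control cells. Of 26 family genes in the table, the 3 members included, 25 were placed on chromosome 13 and 1 was not matched by symbol. On day 6, 0 were above 0 in KO, 2 in KO+Dkk and 4 in WT, and on day 10 the counts were 1 in KO, 6 in KO+Dkk and 12 in WT. Such counts grow with depth, and KO+Dkk on day 10 had 37200000 reads against 10900000 in KO, so those counts cannot be compared. In FBS culture 10 were above 0 in overexpressing and 2 in control cells on day 4, and 7 and 1 on day 7. Of all 21937 genes, 6616 were at 0 in KO, 6782 in KO+Dkk and 6871 in WT on day 6, and 6195, 5414 and 6275 on day 10. In FBS culture 5926 were at 0 in overexpressing and 5433 in control cells on day 4, and 6009 and 5677 on day 7. Some family genes share sequence, so their counts above 0 may not be independent. The summed level of the 26 family genes was 0.13 RPKM in KO, 1.24 in KO+Dkk and 14.6 in WT on day 10. It was 2.77 RPKM in overexpressing against 0.13 in control cells on day 4. These sums include the members, so they do not stand apart from the member values. The 22 listed prolactins other than the members summed to 0.13 RPKM in KO, 0.57 in KO+Dkk and 7.20 in WT on day 10. In FBS culture on day 4 those 22 summed to 2.12 RPKM in overexpressing and 0.13 in control cells.

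Of 22 listed prolactins other than the members, 3 reached 1 RPKM in any library, each in WT on day 10 alone. They were 2-fold lower in KO that day, as 1.96% of all genes were, which their selection by a high WT value largely fixes. Prl3b1, the second placental lactogen, was listed at 0 in KO, at 0.06 RPKM in KO+Dkk and at 1.69 in WT on day 10. Prl2c5 was at 0.13 RPKM in KO, 0.15 in KO+Dkk and 1.90 in WT, and 38.6% of its 50-base windows recurred in other genes. Prl2a1 was listed at 0 in KO, at 0.15 RPKM in KO+Dkk and at 1.52 in WT, and in FBS culture at 0.98 RPKM in overexpressing against 0.03 in control cells on day 4. Prl4a1, below 1 RPKM throughout, was at 0.31 RPKM in overexpressing cells on day 4 and 0.40 on day 7 against 0 in control cells on both days, and at 0.10 in WT on day 10.

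The genes most like each of the 5, by Pearson r of log2(RPKM + 0.5) over the 10 libraries among 13757 genes that reached 1 RPKM in any of them, were mostly each other and further prolactins. For Ctsj they were Prl2c5 (r = 0.978), Prl7d1 (0.974) and Ctsr (0.967). For Ctsr they were Ctsj (0.967), Prl2c5 (0.960) and Prl7d1 (0.957), and for Prl7d1 they were Ctsj (0.974), Prl2c5 (0.973) and Ctsq (0.968). Ctsq had Grm7, a glutamate receptor gene at 0.24 RPKM in KO and 3.39 in WT on day 10, beside Prl7d1 (both 0.968), and then Prl2c5 (0.952). For Tpbpa they were Prl3b1 (0.988) and the microRNA genes Mir1898 and Mir450b (both 0.984). Among the 5 genes r ran from 0.89 to 0.97 over 10 pairs. These values share libraries and their depth and rest mainly on WT on day 10, so they describe the libraries and nothing more.

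Trophoblast stem cell and regulator genes moved in both directions. Of 18 listed trophoblast stem cell and regulator genes, 17 were above the filter in SFEB culture, of which 4 were 2-fold higher and 0 lower in KO than in WT on day 6 (median difference 0.21, against 0.00 over all genes). On day 10, 4 were higher (Esrrb, Gata2, Gata3 and Bmp4) and 3, Cdx2, Eomes and Tcfap2a, were lower like the 5 genes (median 0.10, against 0.06). In WT on day 10 against WT on day 6, 8 were higher and 1 lower (median 0.86, against 0.09). With overexpression the 16 above the filter gave 1 higher and 2 lower on day 4 (median -0.10, against -0.07). The day 7 counts were 4 higher and 10 lower (median -1.42, against -0.03). Shares of all genes called in KO against WT were 4.88% higher and 2.18% lower on day 6, and 8.26% and 1.96% on day 10. In WT between the days they were 16.9% and 7.98%. With overexpression they were 1.72% and 3.47% on day 4, and 6.96% and 11.1% on day 7. Most of these genes also work outside the trophoblast, Cdx2 in posterior mesoderm and gut and Hand1 in mesoderm, so their level does not place cells in 1 lineage.

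Cdx2, which sets trophoblast fate in the early embryo, was at 20.4 RPKM in KO, 1.27 in KO+Dkk and 0.82 in WT on day 6, and at 0.34, 0.50 and 1.89 RPKM in the same order on day 10. In FBS culture it was at 0.38 RPKM in overexpressing and 2.75 in control cells on day 4, and the day 7 values were 0.93 and 44.9 RPKM. Hand1, a factor of giant cells and mesoderm, was at 5.63 RPKM in overexpressing and 158 in control cells on day 7. Those 2-fold higher with overexpression that day were Eomes, at 23.5 RPKM in overexpressing and 5.55 in control cells, Esrrb (58.3 and 13.4 RPKM), Tcfap2c (9.54 and 4.42 RPKM) and Spry4 (16.6 and 6.99 RPKM). Gata3 was at 1.41 RPKM in KO and 0.12 in WT on day 6, and the day 10 values were 6.28 and 2.02 RPKM. Eomes, of trophoblast stem cells and primitive streak, was at 0.30 RPKM in KO, 2.93 in KO+Dkk and 1.59 in WT on day 10. The library with the highest Cdx2 and Hand1, control on day 7, listed all 5 of Ctsj, Ctsq, Ctsr, Tpbpa and Prl7d1 at 0.

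**Figure D4:**
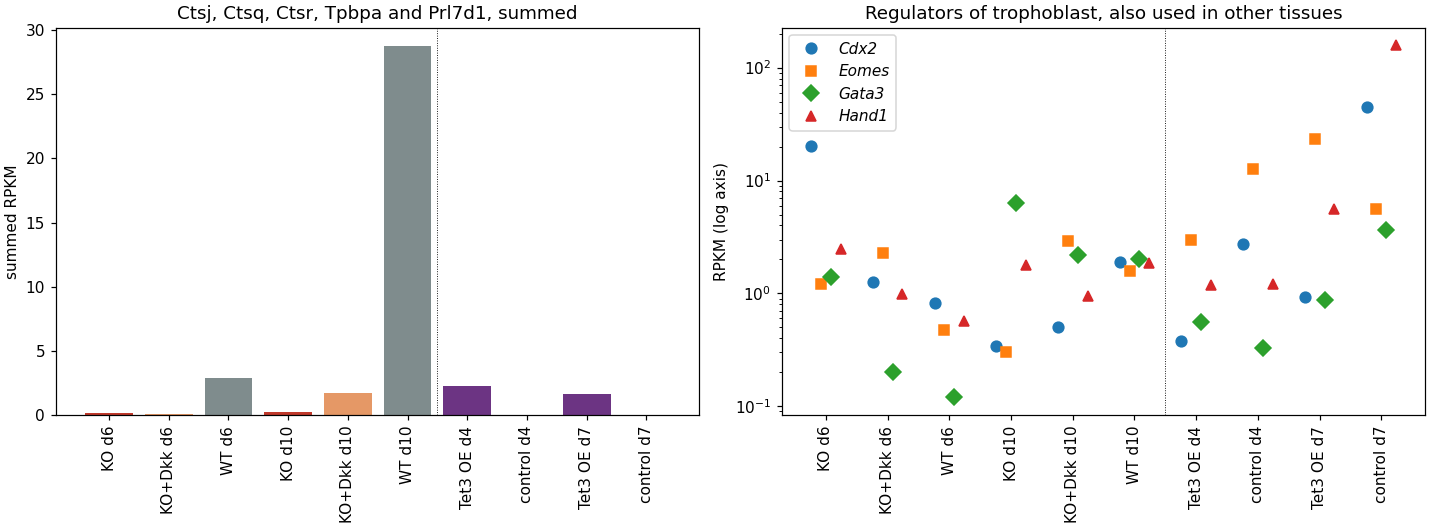
Left, summed RPKM of Ctsj, Ctsq, Ctsr, Tpbpa and Prl7d1 in each library. Right, RPKM of Cdx2, Eomes, Gata3 and Hand1 in the same libraries on a log axis, where control on day 7 has Cdx2 at 44.9 and Hand1 at 158 RPKM while the 5 genes on the left sum to 0.

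Of 11 spongiotrophoblast and glycogen cell genes, which besides Tpbpa would mark that layer, Tpbpb was listed at 0 in all 10 libraries, and of the 3 above the filter in SFEB culture 0 were 2-fold different between KO and WT on day 10. Flt1, a receptor also made by endothelium, was 2-fold higher in KO on day 6, at 1.45 RPKM against 0.41 in WT. On day 7 of FBS culture 3 of 5 were lower with overexpression and 0 higher, among them Plac1 at 1.07 RPKM in overexpressing against 27.7 in control cells. Of 12 labyrinth and syncytiotrophoblast genes, 6 were above the filter in SFEB culture. On day 6, 4 of these (Slc16a1, Slc16a3, Igf2 and Hsd11b2) were higher and 0 lower in KO (median 1.11). On day 10, Slc16a3 and Igf2 were higher and 0 lower (median 0.23). Below the filter on day 6, Pparg was at 0.05 RPKM in KO and 0.35 in WT and Cebpa at 0.22 and 0.30, while Dlx3 was at 0.85 and 0.23. Syna was at 0 in KO and 0.11 RPKM in WT that day, and Synb and Rhox4b were listed at 0 in both. Igf2, a growth factor of placenta and mesoderm, was at 176 RPKM in KO and 10.5 in WT on day 6, with day 10 values of 309 and 60.4 RPKM. With overexpression 3 of 7 were lower and 0 higher on day 7 (median -0.90). Shares of all genes in KO against WT were 4.88% higher and 2.18% lower on day 6, and 8.26% and 1.96% on day 10. With overexpression on day 7 they were 6.96% higher and 11.1% lower.

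The lysosomal cathepsins, present in nearly all cells and related to the placental ones, were called between some libraries and not between others. Of 10 above the filter, 0 were 2-fold different between KO and WT on either day (median difference 0.27 on day 6 and 0.49 on day 10). With overexpression Ctsc was lower on day 4, and Ctsh and Ctso were lower on day 7. Shares of all genes in KO against WT were 4.88% higher and 2.18% lower on day 6, and 8.26% and 1.96% on day 10. With overexpression 3.47% were lower on day 4 and 11.1% on day 7. Between days 6 and 10, 3 were higher and 1 lower in KO (21.1% and 8.01% of all genes). In KO+Dkk 1 was higher and 3 lower (17.6% and 6.81%), and in WT 2 were higher and 1 lower (16.9% and 7.98%). With 10 genes, 0 calls in KO against WT lie near the shares of all genes, and nothing is read from them. Ctsl, the closest lysosomal relative, was at 127 RPKM in KO, 106 in KO+Dkk and 111 in WT on day 10, and it was at 106 to 336 RPKM over all 10 libraries, above the 14.1 RPKM that was the highest value of Ctsj.

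Markers of other cell types moved between the same libraries. Shares of all genes in KO against WT were 8.26% higher and 1.96% lower on day 10, and 4.88% and 2.18% on day 6. On day 10, 3 of 5 pluripotency genes above the filter were 2-fold lower in KO and 0 higher (median -1.26), among them Pou5f1, at 3.06 RPKM in KO, 6.55 in KO+Dkk and 20.3 in WT. The summed level of all 6 pluripotency genes was 55.5 RPKM in KO, 51.0 in KO+Dkk and 61.9 in WT, led by Sox2, a gene shared with neuroectoderm. Simple epithelium genes, which trophoblast shares, had 2 of 8 lower and 0 higher on day 10 (median -0.47), Krt8 being at 25.3 RPKM in KO and 52.0 in WT and the list summing to 81.4 and 136 RPKM. On day 6 they had 7 of 8 higher and 0 lower (median 1.47), Krt8 being at 91.9 RPKM in KO and 22.1 in WT and the list summing to 290 and 84.0 RPKM, against the direction of Ctsj. Visceral endoderm genes had 3 of 12 higher and 0 lower in KO on day 10 (median 0.12), parietal endoderm genes 4 of 8 higher and 0 lower (median 1.01), neuroectoderm genes 0 of 6 higher and 2 lower (median -0.43), and haematopoietic genes 0 of 3 higher and 1 lower. Summed levels in KO and WT that day were 117 and 88.9 RPKM for visceral endoderm, 713 and 390 for parietal endoderm, 189 and 208 for neuroectoderm and 10.9 and 15.02 for haematopoietic genes. Within the visceral endoderm sum Apoe was higher in KO, at 51.7 RPKM against 21.8 in WT, and Afp lower, at 23.8 against 36.2. The part of these cell types in the difference of the trophoblast genes was not tested.

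With overexpression on day 7, 5 of 6 pluripotency genes were higher and 0 lower (median 1.80), with Pou5f1 at 880 RPKM in overexpressing and 207 in control cells, and 9 of 14 visceral endoderm genes were lower and 0 higher (median -1.43). That day 3 of 4 neuroectoderm genes were higher and 0 lower (median 2.28), 3 of 9 parietal endoderm genes lower and 0 higher (median -0.59), and 2 of 5 haematopoietic genes lower and 0 higher. Among all genes 6.96% were higher and 11.1% lower. The haematopoietic list summed to 25.1 RPKM in overexpressing and 4273 in control cells, nearly all of it the embryonic globin gene Hbb-bh1, and the pluripotency list to 1346 and 313 RPKM. On day 4, where Ctsj was higher with overexpression, 1 of 6 pluripotency genes, Zfp42, was higher and 0 lower (median 0.43, against -0.07), and 4 of 8 simple epithelium genes were lower and 0 higher (median -1.03). Among all genes 1.72% were higher and 3.47% lower that day. Zfp42 was then at 33.0 RPKM in overexpressing and 15.5 in control cells, and Pou5f1 at 1186 and 1118 RPKM. The part of these markers in the values of the trophoblast genes was not tested.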

How the data were processed

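RNA was measured in 10 libraries of mouse ES cells, prepared by a SOLiD kit for total RNA and read on a SOLiD instrument, per the labels' protocols. The authors deposited 1 table of RPKM values with 2 decimals, and HTSeq, a read counter, and build mm9 are named per the submitters' processing notes. The aligner, gene models and strandedness, and how multiply matched reads were treated, were not given in the sources used here. Since RPKM is relative to the whole library, a few abundant transcripts can lower all others.

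Libraries were mapped by title, and each condition and day had 1 library. Differences are log2(RPKM + 0.5) of 1 library minus another in 13 comparisons, for genes that reached 1 RPKM in any library of the culture, called at 2-fold. No count model was run. Library totals were estimated from the steps of low RPKM values of single-transcript genes in GENCODE vM21, and the method was tested on simulated data. At these totals 59.1% to 78.5% of values came within 0.15 read of whole, the lowest share being that of KO+Dkk on day 10, from 66 values. The totals were picked for that closeness, so it is no independent check of them. Reads, 95% Poisson intervals and 95% Clopper-Pearson intervals of read ratios follow from these totals, taken as exact. The intervals cover counting error only. A floor of 3 reads was used for libraries at 0.

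The members and the 12 gene lists (133 names, 7 found through an older symbol and 1 not listed) were chosen with earlier results of these data known. Named were all members, a selection of list genes made by no fixed rule, and the 3 genes most like each member above 1 RPKM. Many list genes that changed 2-fold are not named. Neighbours in the cluster, family members below 1 RPKM, and the motifs CCAAT and TTTAAA were added after values or sequences had been seen. Promoters came from the RefSeq table of GRCm38.p6, which held 9 of the 10 members. Alternatives were pseudocounts of 0.1 and 1, no filter, a filter of 5 RPKM and RPKM rescaled to equal sums. Python 3.11.15, pandas 2.3.3, scipy 1.17.1, Biopython 1.88 and matplotlib 3.10.9 were used.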

Additional observations from a re-analysis of the deposited data

Results flagged for a closer look

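Differences of 3 genes ran in opposite directions on the 2 days of a culture, and the difference between the days was not tested in any of these cases. Ctsj was lower in KO+Dkk than in KO on day 6 by a log2 difference of -0.19 and higher on day 10 by 0.44, 0.63 apart, from 1 against 2 estimated reads on day 6 and 23 against 3 on day 10. Gcm1 was lower in KO+Dkk than in KO on day 6 by -0.14 and higher on day 10 by 0.11, 0.25 apart, from 3 reads or fewer in each library. Elf5 was lower in KO+Dkk than in WT on day 6 by -0.11 and higher on day 10 by 0.24, 0.35 apart, from 7 reads or fewer. Gcm1 was lower in Tet3-overexpressing than in control cells on day 4 by -0.23 and higher on day 7 by 0.23, 0.46 apart, from 24 against 64 and 4 against 1 reads.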

How the results depend on the processing

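No difference changed direction under the alternatives run on it. Genes below the filter were recomputed with no filter alone, which leaves their differences as they are, so the pseudocount and the rescaling were not tried on them. Under the 5 alternatives 113 of the counts of called genes stayed within 1.5 times while 17 did not. Many of the 113 were counts of 0 that stayed at 0, so that number does not measure how stable the calls were. With a pseudocount of 1, the 2-fold lower genes in KO against WT on day 6 fell to 0 and those in KO+Dkk against WT on day 6 to 1, and the higher genes fell to 0 in KO+Dkk against KO on day 10, in overexpressing against control cells on day 7 and in KO+Dkk between the days. With a pseudocount of 0.1, 3 genes were higher in KO+Dkk against KO on day 10 and 4 in KO+Dkk between the days, and 1 was lower in overexpressing cells on day 7 against day 4. With a filter of 5 RPKM, 2 genes (Ctsj and Prl7d1) were compared and called in KO against WT on day 10, in KO+Dkk against WT on day 10 and in WT between the days, and 0 in overexpressing against control cells on either day, since fewer genes were compared. With no filter, 2 genes were higher in overexpressing against control cells on day 7 and 1, Gcm1, was lower in control cells on day 7 against day 4. With RPKM rescaled to equal sums, 2 genes were higher in KO+Dkk against KO on day 10 and 3 in KO+Dkk between the days, and the median of all genes moved by -0.139 in KO+Dkk against WT on day 10. The cause of the other changes was not tested. No paired analysis was possible because each condition and day had 1 library and the labels carry no replicate numbers. At the depth of KO on day 10, 3 reads of Ctsj would be 0.217 RPKM, so lower values could not be resolved from 0 there.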
